A study of Mus musculus with 13 samples.

Results

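Pax1, Pax9, Nkx3-2, Meox1, Meox2, Foxc1 and Foxc2 are transcription factors of the sclerotome, the part of the somite that gives rise to the vertebrae and to the annulus fibrosus, the fibrous outer ring of the intervertebral disc (IVD). Every probe set whose annotated symbol was exactly one of these names was taken, which gave 12 probe sets for 7 genes, out of 45037 probe sets tested and 18193 genes named by 1 symbol. RNA came from laser-captured lumbar IVD and the vertebrae next to them in E13.5 mouse embryos, and each sample was hybridized to 1 Affymetrix mouse GeneChip array after 50 ng of total RNA had been amplified in 2 cycles. The mutant groups were Col2aCre;Tgfbr2lox/lox embryos, in which Cre driven by the Col2a promoter deletes the type II TGF-β receptor in cells that use that promoter, with 4 arrays of mutant IVD and 3 of mutant vertebrae. The control groups were Cre-negative Tgfbr2lox/wt embryos, which carry 1 floxed allele and keep the receptor, with 3 arrays of control IVD and 3 of control vertebrae taken from the same mice. By the study's methods some notochord was captured along with the future annulus fibrosus, which made up the bulk of each IVD sample, and the deletion is limited to cells that have used the Col2a promoter.

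Sonic hedgehog from the notochord and floor plate induces Pax1 and Pax9 in the ventral sclerotome, and these paired-box factors are needed for vertebral bodies and discs to form. Pax1 and Pax9 activate Nkx3-2, a homeobox factor that promotes cartilage formation in sclerotome. Meox1 and Meox2 are homeobox factors that act together in somite and sclerotome development, and Foxc1 and Foxc2 are forkhead factors that act together in paraxial mesoderm. As sclerotome condenses, Pax1 and Pax9 expression is lost from the cartilage of the vertebral bodies and is retained in the cells between them.

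Pax1 and Pax9 had the largest differences between IVD and vertebrae, so the sequence around a start site is shown for each. In mouse build GRCm38.p6 the Pax1 gene lies on chromosome 2 at 147361930 to 147375049 and the Pax9 gene on chromosome 12 at 56691693 to 56712824. Each window runs from 250 bases before a RefSeq start site to 50 bases after it and lies inside the annotated span of its gene. Capitals mark CAGAC, the core of a Smad-binding element, which was searched on both strands because Smad proteins carry the TGF-β signal.
Pax1 promoter, chr2:147364744-147365043, plus strand: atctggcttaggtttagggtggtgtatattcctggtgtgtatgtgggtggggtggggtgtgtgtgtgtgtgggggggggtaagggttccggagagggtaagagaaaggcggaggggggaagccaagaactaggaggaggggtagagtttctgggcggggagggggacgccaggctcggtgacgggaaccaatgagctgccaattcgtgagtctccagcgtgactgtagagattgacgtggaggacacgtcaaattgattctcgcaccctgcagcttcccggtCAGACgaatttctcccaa
Pax9 promoter, chr12:56695221-56695520, plus strand: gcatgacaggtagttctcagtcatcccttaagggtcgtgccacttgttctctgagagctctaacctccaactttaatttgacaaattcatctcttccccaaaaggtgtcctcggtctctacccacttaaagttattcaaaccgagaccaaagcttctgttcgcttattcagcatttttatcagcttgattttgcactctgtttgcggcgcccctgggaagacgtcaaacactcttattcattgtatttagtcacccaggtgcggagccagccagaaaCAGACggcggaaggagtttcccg
Each window held 1 CAGAC, which began at base 33 after the start site in Pax1 and at base 28 in Pax9. This motif is common: it was found in 49.6% of 32851 promoter windows of the same length, and in 3 of the 5 windows on hand for these factors (those of Pax1, Pax9 and Nkx3-2, but not of Meox2 and Foxc1). The Gli site TGGGTGGTC, the consensus of the factors that carry the hedgehog signal, was in 0.253% of all windows and in 0 of the 5. A match describes the letters only.

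The deposited values were log2 values from which the median of the 13 arrays had been removed for each probe set. They therefore give differences between arrays, with no level of expression and no signal over background. Precision was limited by the few arrays in each group and by the spread among them. A value of 1 is a 2-fold excess over the median array. In dissected tissue, fewer cells of a type and less RNA per cell cannot be told apart.

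Several arrays stood apart in markers of other tissues, and these values touch the results below. The mutant IVD 3 array had a mean of 3.09 over 8 neuronal genes, against -0.50 to 0.62 on the other mutant IVD arrays and -0.75 to 0.57 in control IVD. On the same array Matn1, a cartilage matrix gene, was at 0.60, against -3.69 to -2.49 on the other mutant IVD arrays, -3.71 to -2.23 in control IVD and 0.00 to 1.75 in the vertebrae. Its mean over 7 genes of the fibrous disc matrix was -1.60, against 0.85 to 1.76 on the other mutant IVD arrays. It thus lay with the vertebrae (-1.66 to 0.07) in this mean, as in the single gene Matn1. Its mean over 7 cartilage genes was 0.11, against -1.32 to -0.16 in control IVD and -0.22 to 1.02 in the vertebrae. Of those genes, Col2a1 (0.04), Acan (-0.004) and Sox9 (0.07) were below the highest of the other IVD arrays (0.41, 0.41 and 0.13). Neuronal genes were also high on control vertebrae 3 (2.47), liver genes were above 2 on mutant IVD 3, mutant IVD 4, control IVD 1 and control vertebrae 1 (2.88 to 6.06), and mutant vertebrae 1 had the widest spread over all probe sets (SD 0.743, against 0.334 to 0.524 on the others). Tgfbr2 itself was at 0.06 to 0.48 in mutant IVD and -0.11 to 0.29 in control IVD, and the place of its probes relative to the deleted part was not analysed here. Most results on mutant IVD that turn on Pax1, Pax9, Meox1 or the gene lists are given with and without mutant IVD 3. The part that these transcripts play was not tested.

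**Figure D1:**
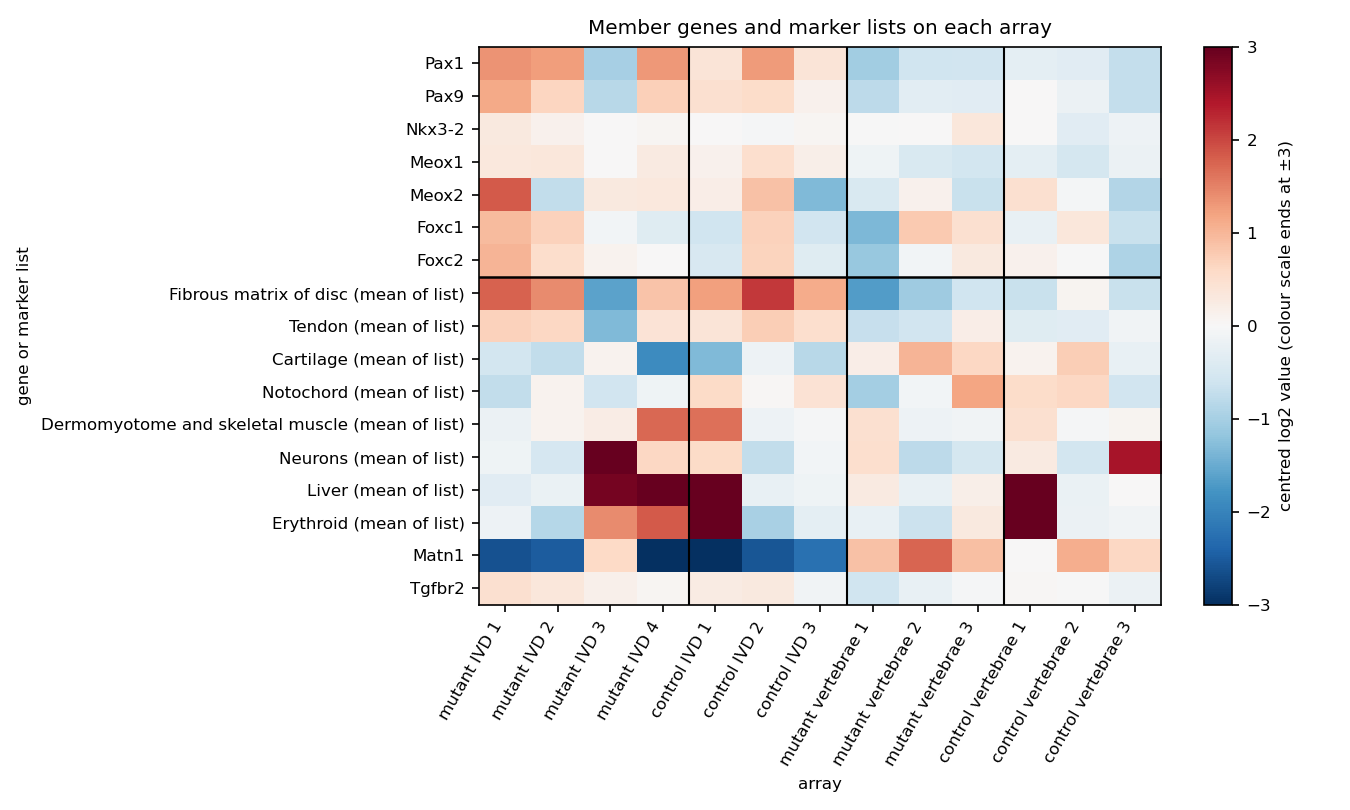
Centred log2 values (colour) of the 7 factors, as the mean of each gene's probe sets, and of marker lists, Matn1 and Tgfbr2 on each of the 13 arrays (columns, by group). On mutant IVD 3 the Pax1, Pax9 and fibrous matrix rows are blue and the neuron row is red, unlike the other mutant IVD arrays; liver genes are also red on mutant IVD 4, control IVD 1 and control vertebrae 1.

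Pax1 lay higher in IVD than in any vertebrae array on all but 1 of the IVD arrays at its wider-ranging probe set. This probe set, 1449359_at, had 1.93, 1.60, -1.06 and 2.04 in mutant IVD and 0.76, 1.43 and 0.32 in control IVD. In mutant vertebrae it had -1.54, -1.15 and -0.78, and in control vertebrae 0.00, -1.02 and -1.28. Mutant IVD 3 was the only IVD array at the level of the vertebrae. In mutants the difference between IVD and vertebrae was 2.28 (SE 0.65, adjusted p = 0.332, limma), and without mutant IVD 3 it was 3.01 (SE 0.37, adjusted p = 0.0104, limma). Among the control arrays the 2 tissues did not overlap, and the difference was 1.60 (SE 0.69, 95% interval 0.09 to 3.11), which is about 3.04-fold. It did not pass after adjustment over all probe sets (unadjusted p = 0.0391, adjusted p = 1.0, limma).

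The other Pax1 probe set, 1443476_at, moved the same way by less. It had 0.76, 0.90, -0.93 and 0.57 in mutant IVD and 0.00, 1.11 and 0.47 in control IVD, against -0.55, -0.05 and -0.38 in mutant vertebrae and -0.60, 0.32 and -0.14 in control vertebrae. In mutants the difference between IVD and vertebrae was 0.65 (SE 0.42), and without mutant IVD 3 it was 1.07. The groups overlapped in both genotypes. Within each of the 3 control mice, however, IVD was above vertebrae by a narrow range, 0.60 to 0.80.

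Pax9, the close relative of Pax1, followed it array by array at 2 of its 3 probe sets. Probe set 1421246_at had 1.95, 1.17, -1.22 and 0.99 in mutant IVD and 0.89, 0.97 and 0.15 in control IVD. It had -1.43, -0.25 and -0.51 in mutant vertebrae and 0.00, -0.79 and -0.85 in control vertebrae. All control IVD arrays were above all control vertebrae arrays, and again mutant IVD 3 lay among the vertebrae. In mutants IVD exceeded vertebrae by 1.45 (SE 0.60, adjusted p = 0.568, limma), and without mutant IVD 3 by 2.10 (SE 0.38, adjusted p = 0.0492, limma). The control difference was 1.21 (SE 0.64, 95% interval -0.19 to 2.62, unadjusted p = 0.0841 by limma).

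Probe set 1442229_at of Pax9 had 1.19, 1.11, -0.91 and 1.19 in mutant IVD, 0.55, 0.51 and -0.04 in control IVD, -1.44, -0.49 and -0.09 in mutant vertebrae and 0.00, 0.14 and -1.31 in control vertebrae. The other 3 mutant IVD arrays were the highest of the 13, and mutant IVD 3 was among the lowest. In mutants IVD exceeded vertebrae by 1.32 (SE 0.54) at this probe set, and by 1.84 without mutant IVD 3. The third probe set, 1421247_at, stayed between -0.41 and 0.54 on all arrays and did not follow the others (r = 0.04 with 1421246_at and -0.10 with 1442229_at over 13 arrays). Which transcripts of Pax9 it reads was not analysed here. The study's own list of IVD-enriched genes, chosen on these arrays, holds 1449359_at and 1421246_at, so that list alone is no independent evidence of their direction. The study also counts Pax1 and Pax9 among the genes whose IVD preference was verified, and cites earlier published work for both.

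**Figure D2:**
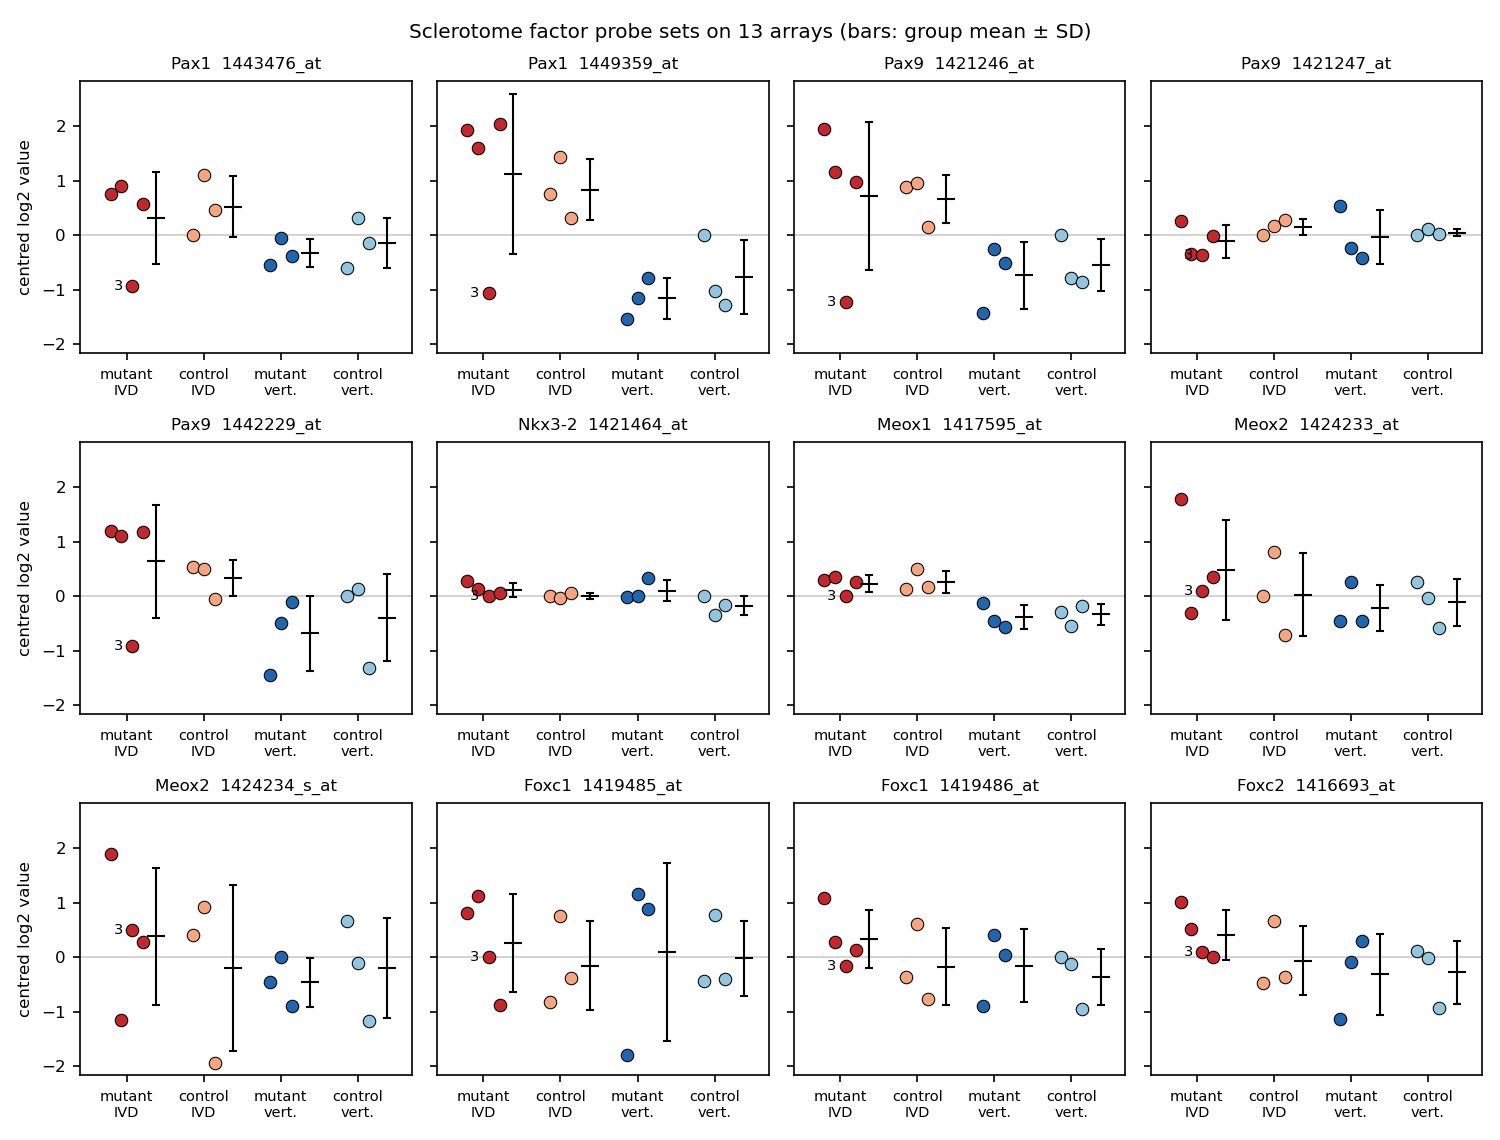
Centred log2 value of each of the 12 probe sets on 13 arrays (points) in mutant IVD, control IVD, mutant vertebrae and control vertebrae, with the group mean ± SD as bars; the 3 marks mutant IVD 3. Pax1 1449359_at and Pax9 1421246_at are above 0 on every IVD array but mutant IVD 3, and Meox1 is at or above 0.00 on the 7 IVD arrays and below it on the 6 vertebrae arrays.

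Meox1 was the one factor whose values separated the tissues on every array. Its probe set 1417595_at (gene on chromosome 11, 101877510 to 101894354) had 0.30, 0.35, 0.00 and 0.26 in mutant IVD and 0.13, 0.50 and 0.18 in control IVD. It had -0.13, -0.45 and -0.56 in mutant vertebrae and -0.29, -0.54 and -0.17 in control vertebrae. Mutant IVD 3 was the lowest IVD array here too, but it remained above all 6 vertebrae arrays. Of all probe sets tested, 94 (0.209%) had all 7 IVD arrays above all 6 vertebrae arrays. The difference was 0.61 in mutants (SE 0.17, 95% interval 0.24 to 0.98, unadjusted p = 0.0036 by limma) and 0.60 in controls (SE 0.18, 95% interval 0.21 to 0.99, unadjusted p = 0.0060 by limma). Both correspond to about 1.52-fold, and both missed the threshold after adjustment (adjusted p = 0.314 in mutants and 1.0 in controls).

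Nkx3-2, the factor that Pax1 and Pax9 activate, varied little. Probe set 1421464_at had 0.29, 0.13, 0.00 and 0.05 in mutant IVD, 0.00, -0.04 and 0.06 in control IVD, 0.00, 0.00 and 0.33 in mutant vertebrae and 0.00, -0.34 and -0.16 in control vertebrae. The groups overlapped or met at 0.00 in each comparison. The control tissues differed by 0.18 (SE 0.16, 95% interval -0.17 to 0.52), so a tissue difference of the size estimated for Pax1 1449359_at lay outside this interval. That holds for this probe set alone, and the centred values cannot show whether its signal was above background. Mutant and control vertebrae differed by 0.28 (SE 0.16, 95% interval -0.07 to 0.62, adjusted p = 0.998, limma).

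Meox2 had a wide spread within groups at both probe sets, which moved together (r = 0.91 over 13 arrays). At 1424233_at it had 1.79, -0.31, 0.10 and 0.36 in mutant IVD and 0.00, 0.82 and -0.72 in control IVD, against -0.45, 0.27 and -0.45 in mutant vertebrae and 0.27, -0.03 and -0.57 in control vertebrae. Mutant IVD 1 was the highest array, and all groups overlapped. At 1424234_s_at the same array had 1.90 and control IVD 3 had -1.93, the widest range of any of the 12 probe sets. In mutants the IVD differed from the vertebrae by 0.70 (SE 0.48) and 0.84 (SE 0.76) at the 2 probe sets, and without mutant IVD 3 by 0.82 (SE 0.52) and 0.80 (SE 0.84). Without mutant IVD 1 these differences were 0.26 and 0.33.

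Foxc1 and Foxc2 also varied widely within groups. Foxc2 (1416693_at) had 1.02, 0.52, 0.10 and 0.00 in mutant IVD and -0.47, 0.67 and -0.37 in control IVD, against -1.14, -0.08 and 0.29 in mutant vertebrae and 0.12, -0.01 and -0.94 in control vertebrae. Mutant vertebrae 1 was the lowest array for Foxc2 and for Foxc1 at 1419485_at, where it had -1.79 against 1.17 and 0.90 on the other mutant vertebrae arrays. At 1419486_at Foxc1 had 1.10, 0.28, -0.16 and 0.13 in mutant IVD and -0.36, 0.62 and -0.77 in control IVD, which overlapped. The Foxc2 difference between mutant IVD and mutant vertebrae was 0.72 (SE 0.41, 95% interval -0.18 to 1.61), and that of Foxc1 at 1419486_at was 0.49 (SE 0.42, 95% interval -0.43 to 1.40). Without mutant IVD 3 they were 0.82 (SE 0.45) for Foxc2 and 0.65 (SE 0.44) for Foxc1, and without mutant vertebrae 1 they were 0.30 and 0.11.

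Comparing mutant IVD with mutant vertebrae asked which of these factors differed between the tissues after deletion of the receptor. After adjustment 0 of the 12 passed, against 0.0155% of all probe sets. At an unadjusted p under 0.05, 4 of the 12 were higher in IVD (Pax1 1449359_at, Pax9 1421246_at and 1442229_at, and Meox1), against 4.35% of all probe sets, and 0 were lower. Of the 12, 1 (Meox1) did not overlap between the tissues, against 3.41% of all probe sets that were higher without overlap. Without mutant IVD 3, 2 of the 12 passed after adjustment (Pax1 1449359_at and Pax9 1421246_at), against 0.393% of all probe sets. That array was noticed through its low Pax1 and Pax9 as well as through the marker lists, so those 2 calls rest in part on leaving out a low value of the same genes.

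The comparison of control IVD with control vertebrae asked which of these factors mark the tissue that becomes disc. After adjustment 0 of the 12 probe sets passed limma's test, as did 0% of all probe sets. At an unadjusted p under 0.05, 2 of the 12 were higher in IVD (Pax1 1449359_at and Meox1), against 1.25% of all probe sets, and 0 were lower. In all, 3 of the 12 did not overlap between the tissues, all higher in IVD (those 2 and Pax9 1421246_at), against 3.54% of all probe sets. The median difference of the 12 was 0.20, beside -0.02 over all probe sets, and ran over 0.14 (without control vertebrae 3) to 0.58 (without control IVD 3) when 1 array was left out. Of the 12, 6 differed by less than their own standard error.

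The control tissues came from the same 3 mice, and arrays of 1 mouse deviated together (r = 0.57 to 0.80). When mouse was fitted as a random block, 0 of the 12 passed after adjustment, against 0.0933% of all probe sets. When it was a fixed block, 0 passed, against 0.0711%. At an unadjusted p under 0.05, 5 of the 12 were higher in IVD with the random block (both of Pax1, 2 of Pax9 and Meox1), against 5.69% of all probe sets. The smallest adjusted p was that of Pax9 1421246_at, 0.154 with the random block in limma, where its standard error was 0.22. In each of the 3 mice, IVD was above vertebrae for 6 of the 12 (both of Pax1, all 3 of Pax9 and Meox1), against 15.7% of all probe sets. For Pax9 1421247_at the 3 excesses were 0.0001, 0.05 and 0.26.

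**Figure D3:**
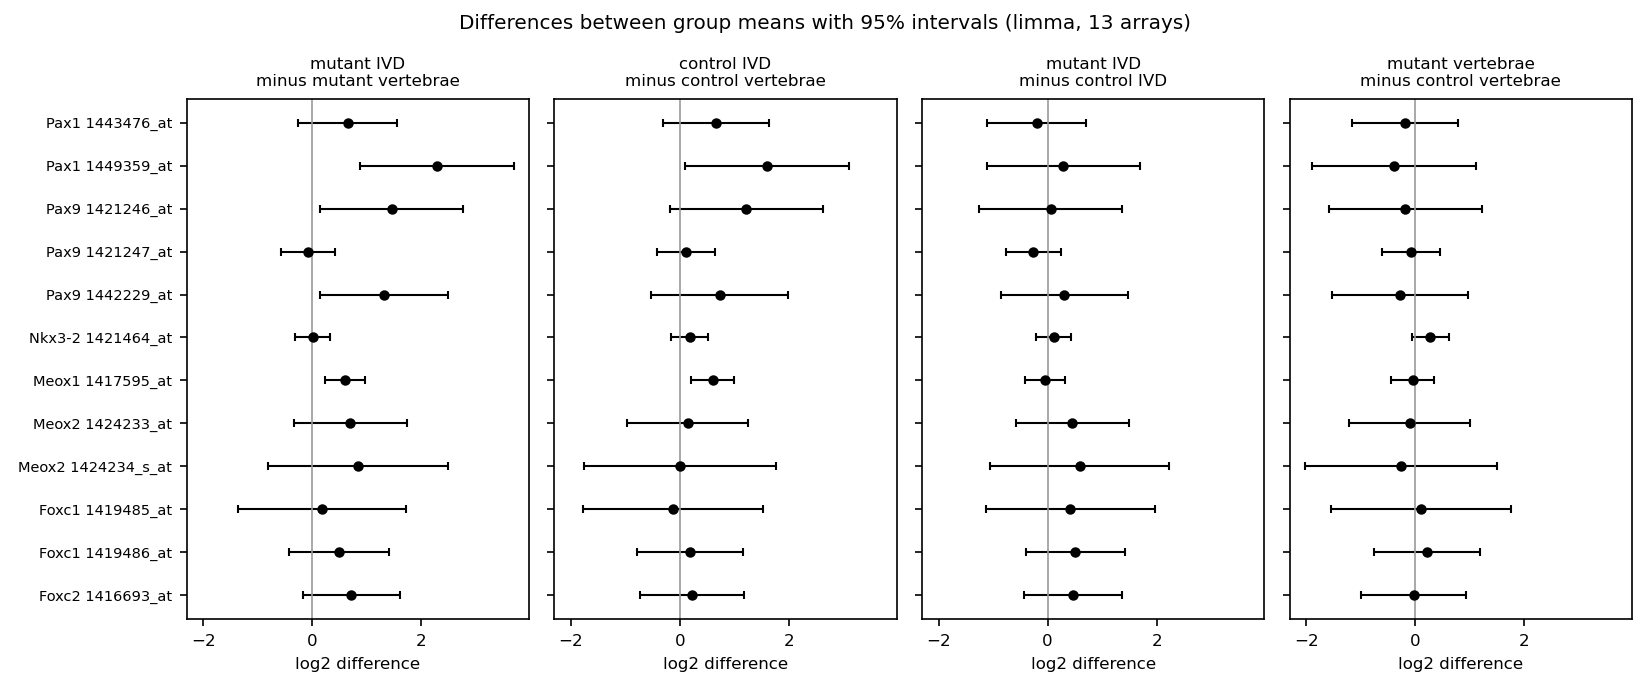
Differences between group means (points, log2) with 95% intervals from limma for the 12 probe sets in 4 comparisons, mutant IVD and control IVD each against vertebrae of the same genotype, and mutant IVD and mutant vertebrae each against control. In both tissue comparisons the intervals of Pax1 1449359_at and Meox1 are above 0, and in both genotype comparisons all 12 intervals include 0.

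The tissue difference was also averaged over both genotypes, a comparison added after the values had been seen. It was 1.94 for Pax1 1449359_at (SE 0.47, adjusted p = 0.175, limma), 1.33 for Pax9 1421246_at (SE 0.44, adjusted p = 0.360) and 0.60 for Meox1 (SE 0.12, adjusted p = 0.112). After adjustment 0 of the 12 passed, against 0.104% of all probe sets, and at an unadjusted p under 0.05, 4 of the 12 were higher in IVD, against 4.35%. Without mutant IVD 3, 3 of the 12 passed (Pax1 1449359_at with adjusted p = 0.0031, Pax9 1421246_at with 0.0197 and Meox1 with 0.0444, limma), against 0.777% of all probe sets. That array was the lowest IVD array at each of these 3 probe sets. These calls thus rest in part on leaving out a low value of the same genes.

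Mutant IVD against control IVD asked what loss of the receptor did to these factors in the disc. None of the 12 passed after adjustment, as with 0% of all probe sets, and 0 of the 12 had an unadjusted p under 0.05, against 3.13% of all probe sets. For Pax1 1449359_at the difference was 0.29 (SE 0.65, 95% interval -1.12 to 1.70), and for Pax9 1421246_at it was 0.05 (SE 0.60, 95% interval -1.26 to 1.37). Pax1 1443476_at differed by -0.20 (SE 0.42), Pax9 1442229_at by 0.31 (SE 0.54) and Pax9 1421247_at by -0.26 (SE 0.23). For Meox1 the difference was -0.04 with a narrower 95% interval, -0.41 to 0.33. Foxc1 1419486_at differed by 0.51 (SE 0.42) and Foxc2 by 0.47 (SE 0.41), and when 1 array was left out these ran over 0.21 to 0.90 for Foxc1 and 0.26 to 0.83 for Foxc2.

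The Pax1 and Pax9 values in mutant IVD depended on mutant IVD 3. Without it, Pax1 1449359_at was 1.02 higher in mutant IVD than in control IVD (SE 0.37, unadjusted p = 0.0177, adjusted p = 1.0, limma). The 3 remaining mutant arrays were at 1.60 to 2.04 and the control IVD arrays at 0.32 to 1.43. With mutant IVD 3 included, the groups overlapped. Without mutant IVD 3, Pax9 1421246_at differed by 0.70 (SE 0.38) and Pax9 1442229_at by 0.83 (SE 0.41). Of the 12 probe sets 1 was higher at an unadjusted p under 0.05 in that fit, against 2.23% of all probe sets. With or without that array, 0 of the 45037 probe sets were called in this comparison after adjustment. The lack of a call therefore cannot tell whether Pax1 or Pax9 was lower, unchanged or higher in mutant IVD.

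**Figure D4:**
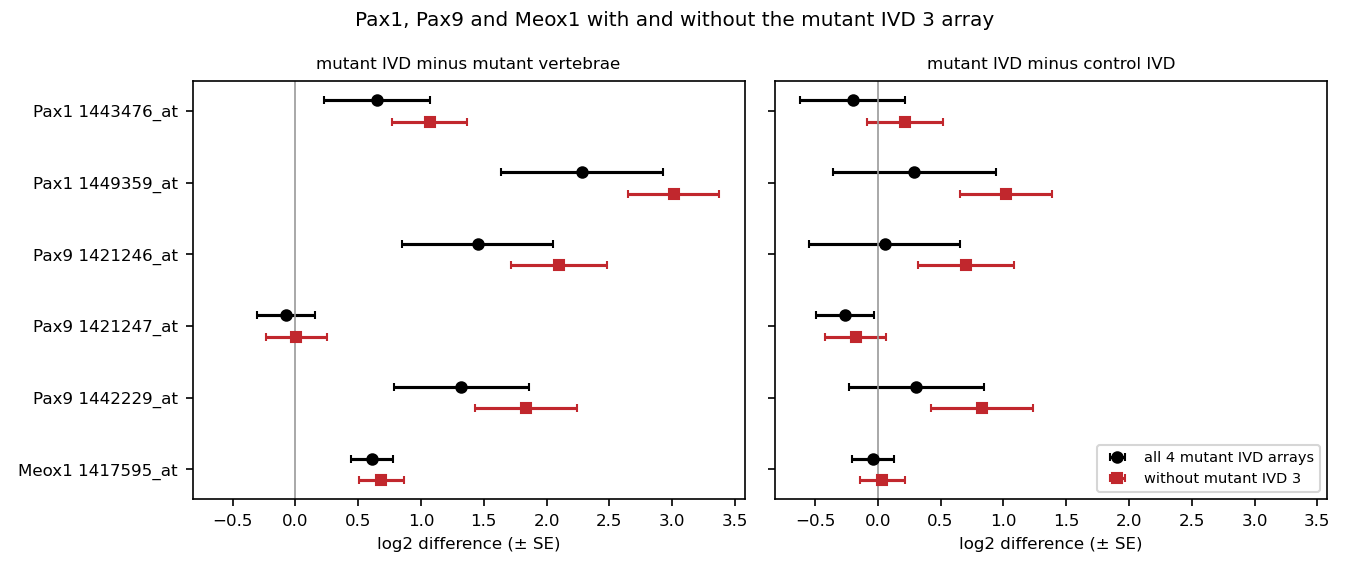
Log2 differences ± SE of the Pax1, Pax9 and Meox1 probe sets for mutant IVD against mutant vertebrae (left) and against control IVD (right), with all 4 mutant IVD arrays (black circles) and without mutant IVD 3 (red squares). Leaving out the array moved Pax1 1449359_at to 3.01 against mutant vertebrae and to 1.02 against control IVD, and Meox1 to 0.68 against mutant vertebrae.

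In the vertebrae, mutant against control gave 0 of 12 after adjustment (0% of all probe sets) and 0 of 12 at an unadjusted p under 0.05, against 2.61% of all probe sets. Of the 12, 11 differed by less than their standard error, Pax1 1449359_at among them (-0.39, SE 0.69, 95% interval -1.90 to 1.12), the exception being Nkx3-2. The interaction, which tests whether the difference of IVD from vertebrae was itself different in mutants and controls, gave 0 of 12 after adjustment (0% of all probe sets) and 0 of 12 at an unadjusted p under 0.05, against 1.37% of all probe sets. For Pax1 1449359_at the interaction was 0.68 (SE 0.95, 95% interval -1.39 to 2.74), and without mutant IVD 3 it was 1.41 (SE 0.52, unadjusted p = 0.0199, adjusted p = 1.0, limma). In all, 72 differences were tested, 12 probe sets in each of 6 comparisons.

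Over the IVD arrays, Pax1 with Pax9 and Foxc1 with Foxc2 passed the exact permutation test of Pearson's r after adjustment over 42 pairs; their rank correlations did not, nor did either pair in vertebrae. Over the 7 IVD arrays, the mean of the Pax1 probe sets correlated with that of Pax9 at r = 0.94 (exact permutation p = 0.0012, adjusted p = 0.025; rho = 0.93, exact permutation p = 0.0067, adjusted p = 0.142), and without the 2 arrays farthest in Pax1 r was 0.83. Over the 6 vertebrae arrays r was 0.93 (exact permutation p = 0.0083, adjusted p = 0.117; rho = 0.94, exact permutation p = 0.0167, adjusted p = 0.233), and 0.87 without the 2 farthest. Foxc1 and Foxc2 had r = 0.97 in IVD (exact permutation p = 0.0006, adjusted p = 0.025; rho = 0.96, exact permutation p = 0.0028, adjusted p = 0.117) and 0.97 without the 2 farthest. In vertebrae their r of 0.85 (exact permutation p = 0.0347, adjusted p = 0.188) was -0.30 without the 2 farthest arrays, mutant vertebrae 1 and control vertebrae 3, so it rested on those arrays. Arrays of a tissue share their dissection and any transcripts of other tissues, and both genotypes are pooled here.

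**Figure D5:**
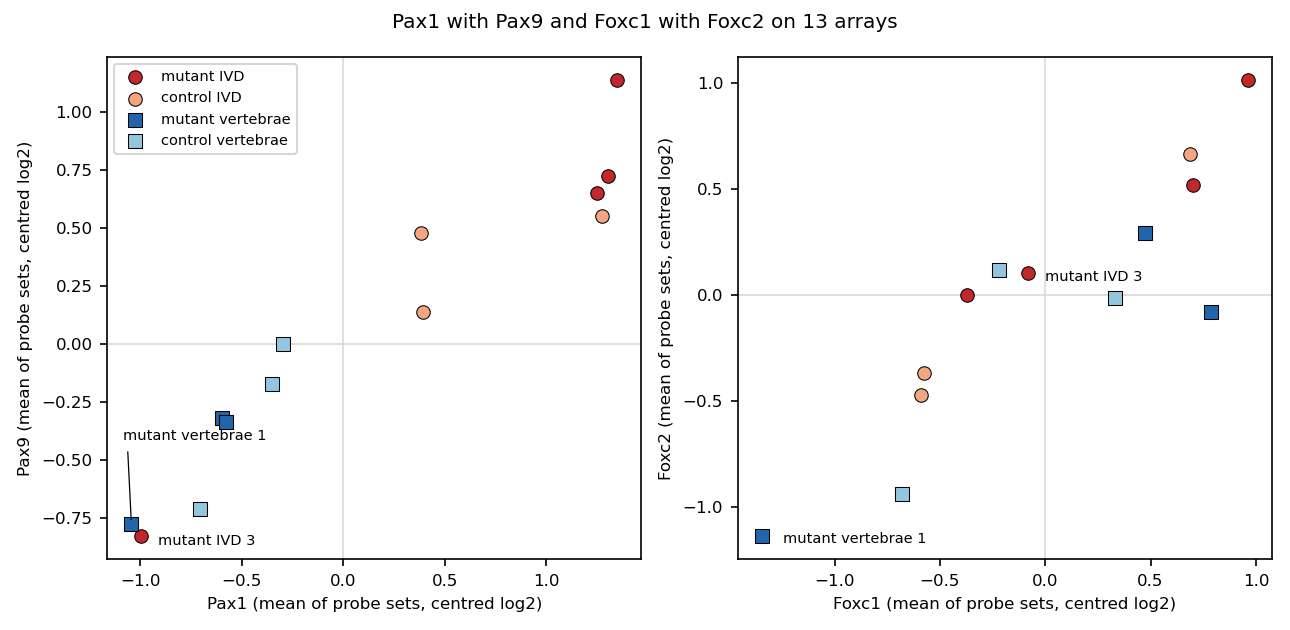
Mean of the probe sets of Pax9 against Pax1 (left) and of Foxc2 against Foxc1 (right), in centred log2 values, on 13 arrays (circles for IVD, squares for vertebrae). Pax1 and Pax9 rank the arrays nearly alike, with mutant IVD 3 beside mutant vertebrae 1 at the low end, while the tissues mix in the Foxc1 and Foxc2 panel.

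By the likeness of their profile over the 13 arrays (Pearson's r of a gene's best probe set with the mean of a factor's probe sets), the 3 genes nearest to Pax1 were Nfib (0.97), Dpt (0.96) and Tgfbi (0.96). Dpt and Tgfbi encode matrix proteins of the fibrous disc list. Nearest to Pax9 were Tcf4 (0.97), Fam162a (0.97) and Pax1 (0.96), and nearest to Meox1 were Prmt8 (0.96), Osbpl3 (0.92) and Dpp6 (0.92). Nearest to Foxc2 were Mbnl3 (0.93), Mbtps1 (0.925) and Foxc1 (0.92), and nearest to Foxc1 were Tenm3 (0.96), Sfxn4 (0.94) and Sptbn1 (0.94). For Nkx3-2 the nearest were Ppp2r5c (0.89), Tardbp (0.85) and Usp21 (0.85), and for Meox2 they were Vcp (0.91), Zc3hc1 (0.88) and Pabpn1 (0.88). These are the highest values among 18193 genes over 13 arrays.

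Other factors of somite and sclerotome were read from a list of 14 symbols, of which 13 were measured, on the mean of each gene's probe sets. After adjustment 0 of 13 passed in control IVD against control vertebrae (0% of all genes) and 0 of 13 in mutant IVD against control IVD (0%). At an unadjusted p under 0.05 the counts were 1 and 3, against 2.68% and 3.01% of all genes in either direction, and these listed genes were all higher. The median differences were 0.24 and 0.24, beside -0.01 and 0.04 over all genes. Without mutant IVD 3, the median of the 13 in mutant against control IVD was 0.41 and the count at an unadjusted p under 0.05 was 4, all higher, against 2.5% of all genes. The gene that joined was Twist1, a basic helix-loop-helix factor of mesoderm (0.96, SE 0.32). Foxf2, a forkhead factor induced by hedgehog signals, had 0.47, 0.63 and 0.29 in control IVD against -0.07, -0.27 and -0.63 in control vertebrae (difference 0.79, SE 0.29, unadjusted p = 0.0192, limma). Zic1, a zinc-finger factor of the dorsal neural tube and somites, had 1.19, 0.18, 1.35 and 0.86 in mutant IVD against -0.95, -1.06 and -2.62 in control IVD (difference 2.44, SE 0.62, unadjusted p = 0.0019, adjusted p = 1.0, limma). Without mutant IVD 3, whose neuronal genes were high, that difference was 2.29 (SE 0.68). Tcf15, an early somite factor, and Tbx18, which maintains the rostral part of each sclerotome segment, differed between mutant and control IVD by 0.46 (SE 0.15) and 0.56 (SE 0.25), and by 0.34 and 0.74 without mutant IVD 3.

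Of the hedgehog and BMP signals that induce or limit sclerotome, 11 of 12 listed genes were measured and 0 passed after adjustment in either of these comparisons (0% of all genes in each). At an unadjusted p under 0.05, 3 were higher in the control tissues and 1 was lower in mutant against control IVD. All genes had 2.68% and 3.01% in either direction. Without mutant IVD 3, 0 were lower and 1 was higher in mutant against control IVD, against 2.5% of all genes. Hhip, a hedgehog-binding inhibitor that is itself a hedgehog target, had 1.01, 2.73 and 1.93 in control IVD against -0.68, 0.16 and -1.60 in control vertebrae (difference 2.59, SE 0.77, unadjusted p = 0.0053, limma). In mutant IVD it had 1.17, 1.40, -2.04 and 0.24 and differed from control IVD by -1.69 (SE 0.72, unadjusted p = 0.0355, limma), and by -0.95 (SE 0.49) without mutant IVD 3. Gas1 and Cdon, hedgehog co-receptors, were above control vertebrae in control IVD by 1.38 (SE 0.45) and 0.93 (SE 0.31) before adjustment. The median of the 11 was 0.29 in the control tissues and -0.22 in mutant against control IVD (-0.23 without mutant IVD 3), beside -0.01 and 0.04 over all genes.

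Of 8 chondrogenic genes downstream of these factors, 7 were measured. In control IVD against control vertebrae, 0 of the 7 passed after adjustment, as did 0% of all genes. At an unadjusted p under 0.05, 2 were lower and 0 higher, against 2.68% of all genes in either direction. The 2 were Matn1, by -3.41 (SE 0.84), and Sox9, the master factor of cartilage, by -0.56 (SE 0.23). Matn1 had -3.71, -2.57 and -2.23 in control IVD against 0.00, 1.10 and 0.62 in control vertebrae. The median of the 7 was -0.56, beside -0.01 over all genes, and in mutant against control IVD it was -0.07, beside 0.04. Without mutant IVD 3 it was -0.24, and Matn1 differed between mutant and control IVD by -0.10 (SE 0.45), against 0.79 (SE 0.78) with all arrays.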

How the data were processed

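Expression was measured on 13 Affymetrix mouse GeneChip arrays in 4 groups. Per the labels and the study's methods, the authors subtracted background, normalized with RMA in GeneSpring and took log2 ratios; the deposited log2 values had a median of 0 for each probe set over the 13 arrays. The 64 control probe sets were left out. Of the 45037 others, 34945 had 1 gene symbol, 932 several and 9160 none. In R 4.3.3 with limma 3.58.1, group means were estimated from all 13 arrays in 1 linear model with no block (lmFit, eBayes, two-sided), with Benjamini-Hochberg adjustment over all probe sets and a threshold of 0.05; Python 3.11.15 was used for the rest. The samples are described as biological replicates. The labels say that control IVD and vertebrae came from the same mice, so array numbers pair control arrays (r = 0.57 to 0.80); mutant numbers did not deviate together (r = -0.40 to 0.24). All member probe sets, the 3 nearest genes of each, and up to 4 genes of each list at an unadjusted p under 0.05 in control tissues or IVD genotypes were named. The members and lists were chosen with earlier results of these data known. Promoters were from RefSeq (GRCm38.p6), where 5 of the 7 genes matched. The fit was tested on simulated data. Alternatives were array number or mouse as a block, quantile normalization, a variance trend, array weights, the methods' unequal-variance test, marker covariates, gene means and leaving out arrays.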

Additional observations from a re-analysis of the deposited data

Results flagged for a closer look

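Among 12 probe sets tested for an array far from the other mutant IVD arrays (groups of 3 were not tested), 2 had such an array, and in both it was mutant IVD 3. Pax1 1449359_at was at -1.06 there, against 1.60 to 2.04 on the other mutant IVD arrays, and Pax9 1442229_at was at -0.91, against 1.11 to 1.19. Chance flags about 1 in 20 groups, and the probe sets of Pax1 and Pax9 are not independent of each other. The same array had the neuron mean of 3.09 and the Matn1 value of 0.60, and the part of other tissue in these values was not tested.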

How the results depend on the processing

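Of 72 differences, 45 were smaller than their standard error; 7 of these (Pax1, Pax9 and Meox1) were followed with the 27 others, and 38 were given no direction. Of those, 30 changed sign under at least 1 alternative and 0 were called under any. No difference between tissues that was followed changed sign, but the median of the 12 in the control tissues, 0.20 with all arrays, was 0.52 with array weights and 0.54 without the arrays with liver transcripts. Against control IVD, the mutant IVD difference of Pax1 1443476_at turned to 0.040 without the arrays with liver transcripts, 0.12 with a neuron covariate, 0.22 without mutant IVD 3 and mutant vertebrae 1 (chosen after seeing the data) and 0.044 as a gene mean. Pax1 1449359_at turned to -0.014 and Pax9 1421246_at to -0.035 with array number as a replicate block, Pax9 1421246_at to -0.10 with array weights, Pax9 1421247_at to 0.033 as a gene mean, and Meox1 to 0.036 without mutant IVD 3 and mutant vertebrae 1. Array number 4 occurs only in mutant IVD, so the block gave the same differences as leaving out mutant IVD 4. Leaving out 1 array at a time gave -0.46 to 0.22 for Pax1 1443476_at, -0.014 to 1.02 for Pax1 1449359_at, -0.36 to 0.70 for Pax9 1421246_at, 0.12 (without control IVD 3) to 0.83 for Pax9 1442229_at and -0.11 to 0.074 for Meox1 in that comparison. With array weights Foxc1 1419486_at was 0.16 and Foxc2 0.15 in that comparison. The reversals of Pax1 1443476_at came without mutant IVD 3 (0.22) or control IVD 2 (0.09), that of Pax1 1449359_at without mutant IVD 4 (-0.014), those of Pax9 1421246_at without mutant IVD 1 (-0.36), 2 (-0.10) or 4 (-0.035) or control IVD 3 (-0.20), and those of Meox1 without mutant IVD 3 (0.036) or control IVD 2 (0.074).

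In mutant IVD against mutant vertebrae, 0 of 12 were called with all arrays, 2 with a neuron covariate, 1 without mutant IVD 3 and mutant vertebrae 1, and 0 to 2 when 1 array was left out, 2 only without mutant IVD 3. For the tissue difference averaged over genotypes, 0 were called with all arrays, 1 with array weights, 1 without the arrays with liver transcripts, 2 with a neuron covariate, 3 without mutant IVD 3 and mutant vertebrae 1, and 0 to 3 when 1 array was left out, 3 only without mutant IVD 3. The paired fit of the control tissues with the mouse as a replicate block called 0 of 12. Matn1 in the control tissues was -3.26 (adjusted p = 0.0368, limma) without the arrays with liver transcripts and -3.41 (adjusted p = 0.0304) without mutant IVD 3. The methods' unequal-variance test called 0 of 12 after adjustment in each of the 4 pairwise comparisons, with 2 at an unadjusted p under 0.05 in the mutant tissues, 3 in the control tissues and 0 between genotypes. The cause of these changes was not tested. No filter on dim probe sets was run, because the centred values hold no level. Among the alternatives in this paragraph, a share over all probe sets was computed only for the mouse blocks and without mutant IVD 3. The counts under the others therefore cannot be set against all probe sets.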
